A study of Mus musculus with 8 samples.

Results

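The translation initiation factors were followed over 4 groups of mouse spleen B cells, as the probe sets that carry a single gene symbol of the families Eif1 to Eif6. The Eif2ak kinases, Eif2s3x and Eif2s3y were left out by the same rule. It found 48 probe sets of 44 genes among the 22225 probe sets with a single symbol. Eif3d and Eif4a1 each had 2 probe sets, Eif4a2 had 3, and each of the other genes had 1. Each group was measured on 2 Affymetrix whole-transcript arrays, labelled as biological replicates. The sample titles of YFP control and LMP1 cells carry the word re-analyzed, and those of naive and CD40-activated cells do not. LMP1 cells came from LMP1flSTOP/YFPflSTOP mice and YFP control cells from YFPflSTOP/+ mice, all females of a (C57BL6XBALBc) F1 cross. LMP1 is a membrane protein of Epstein-Barr virus that signals without a ligand along much the same routes as the B cell receptor CD40. Both kinds of cell were depleted of CD43-bearing cells, given the cell-permeable recombinase TAT-Cre, which removes the stop cassette in front of each transgene, and sorted as reporter-positive after 2 days. Naive control and CD40-activated cells came from male B6/J mice (C57BL6) and were also depleted of CD43-bearing cells. Naive cells went straight to RNA, whereas CD40-activated cells first spent 2 days with an anti-CD40 antibody, and neither was sorted. The promoter that drives the transgenes is not given in the sources used here. All levels are log2 expression values, so a difference of 1 is a doubling.

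Initiation is the step at which a ribosome is loaded onto an mRNA and finds its start codon. The eIF4F complex binds the 5′ cap and unwinds the leader, eIF2 brings the initiator tRNA to the small subunit, eIF3 holds the assembly together, eIF1, eIF1A and eIF5 control the choice of the start codon, and eIF5B joins the large subunit. The exchange factor eIF2B recharges eIF2 after each round, and the 4E-binding proteins hold the cap-binding factor back until mTORC1 phosphorylates them. Resting B cells are small and make little protein, and activated B cells enlarge and raise translation before they divide.

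Array medians lay between 5.52 and 5.68. Of 5 B cell markers 4 were measured, and their median level lay between 11.4 and 12.2 on all arrays. The naive control arrays stood apart. All 5 measured T cell markers were higher there than in the CD40-activated and YFP control cells, with a median level of 8.33 to 8.60 against 5.16 to 5.70 in the other groups, and so were 3 of 4 measured erythroid and platelet markers. Of 6 stress and dissociation genes, 5 were higher in naive than in CD40-activated cells as well as in YFP control cells, with a median level of 9.32 to 10.46 against 5.41 to 6.41 elsewhere. Fewer cells of a type and less RNA per cell cannot be told apart in these samples, and the part of these differences in the values of the initiation factors was not tested. The YFP control arrays differed most from each other. Their levels were more than 1 apart for 990 probe sets, 6 of them initiation factors, against 15 probe sets and no initiation factor on the LMP1 arrays. Of the 48 initiation factor probe sets 38 were lower on YFP control array 2 than on array 1, with a median difference of -0.31, while the median over all probe sets was 0.06.

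Most initiation factor probe sets rose in LMP1 cells relative to YFP control cells. Of the 48 probe sets 30 rose and none fell at an adjusted p under 0.05 (limma over all 22225 probe sets, Benjamini-Hochberg adjustment), and 1 was lower at an unadjusted p under 0.05. Over all probe sets 14.8% rose and 8.31% fell. The median log2 change of the 48 was 0.90, against -0.08 over all probe sets. Every measured subunit of eIF2B rose, as did all 3 measured carriers of the initiator tRNA and all 4 factors of subunit joining, 60S assembly and elongation. Of the eIF3 probe sets 7 of 12 rose, of eIF4F and its helpers 6 of 13, of the start codon factors 3 of 5, and of the inhibitors that bind eIF4E 2 of 3. All 5 measured cell cycle genes rose in the same comparison, with a median change of 2.42. Markers of other lists moved as well. Of 4 dendritic cell markers 2 rose, Flt3 from 6.33 and 6.82 to 9.68 and 9.46 and Zbtb46 from 5.69 and 5.42 to 7.51 and 7.17. Of 3 plasma cell markers 2 fell, with Jchain going from 8.14 and 8.02 to 4.67 and 4.55. Of 5 monocyte and macrophage markers 2 fell, of 4 measured B cell markers 2 fell (Cd79a from 12.65 and 12.62 to 11.49 and 11.44), of 5 measured T cell markers 1 fell, and of 6 stress genes 2 rose. The part of these changes in the rise of the initiation factors was not tested. With LMP1 array 1 left out 18 probe sets rose (8.17% of all probe sets), and with array 2 left out 19 rose (8.89% of all). Without YFP control array 1 the median change of the 48 was 0.98, against -0.10 over all probe sets. Without YFP control array 2 it was 0.76, against -0.025. The rise passed under every alternative run for 15 probe sets, those of Eif1a, Eif1ad, Eif1ax, Eif2b1, Eif2b2, Eif2b5, Eif3a, Eif3b, Eif3c, Eif3l, Eif4ebp1, Eif5b and Eif6, 17318907 of Eif3d and 17264844 of Eif4a1.

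With CD40 activation, relative to naive cells, 22 of the 48 probe sets rose and none fell (limma, none lower at an unadjusted p under 0.05 either), while 10.9% of all probe sets rose and 6.59% fell. The median log2 change of the 48 was 0.61, against -0.05 over all probe sets. All 4 factors of joining, 60S assembly and elongation rose (median 0.91), as did 8 of 12 eIF3 probe sets (median 0.83), but only 2 of 5 eIF2B subunits and 2 of 13 probe sets of eIF4F and its helpers passed the test. Of the 5 cell cycle genes 4 rose, with a median change of 2.15. Of the 26 probe sets that did not pass, 8 had changes at or below 0. Without naive control array 2 the count was 13 (7.13% of all probe sets rose), and without CD40-activated array 1 or array 2 it was 9 or 7 (4.96% or 4.81% of all). The main fit also takes its error from the YFP control and LMP1 arrays. With only the CD40-activated and naive groups in the fit 26 rose and none fell, where 11.9% of all probe sets rose and 6.95% fell. The rise passed under every alternative run for 7 probe sets, those of Eif2a, Eif2b1, Eif3b, Eif3c, Eif3i and Eif3l and 17318907 of Eif3d. The comparison also holds the step from fresh to cultured cells, which cannot be told apart from the antibody.

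The initiation factors are well expressed, and probe sets with higher levels passed the test more often. Among the 5557 probe sets at or above the 75th percentile of mean level, 7.52, 32.5% rose with LMP1 and 28.6% with CD40 activation. Of the 37 initiation factor probe sets at these levels 25 (67.6%) rose with LMP1 and 19 (51.4%) with CD40 activation. This limit was chosen after the levels were seen. The split between rises and falls over all probe sets moved with the scaling. With quantile normalization repeated within each set of arrays, 52.1% of the calls between LMP1 and YFP control were rises, against 64.0% as deposited, and 52.6% against 62.4% between CD40-activated and naive cells. With array medians subtracted, rises made up 73.8% of the calls between CD40-activated and naive cells. Under the repeated quantile normalization 23 initiation factor probe sets rose and 1 fell with LMP1, where 11.4% and 10.5% of all probe sets did. With CD40 activation 14 rose and none fell, where 8.09% and 7.28% of all did.

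**Figure D1:**
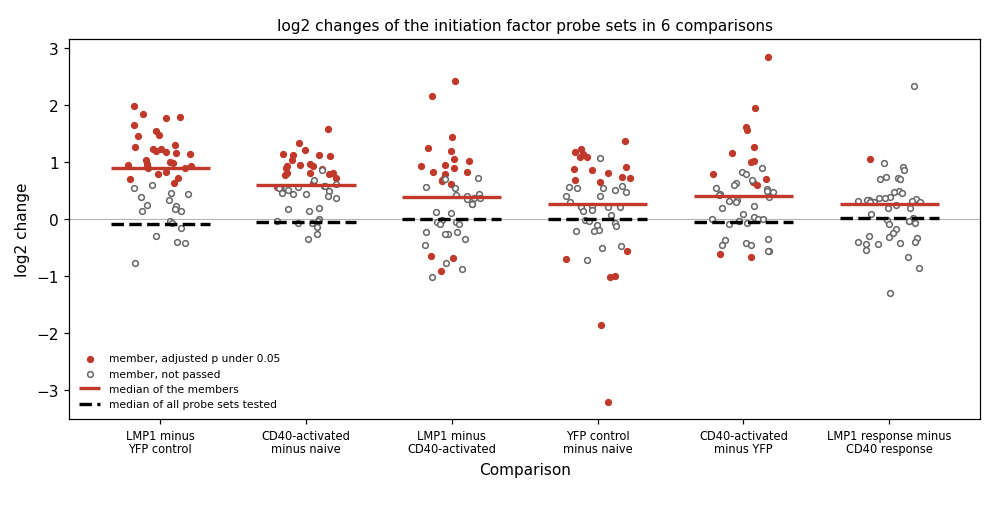
The plot of 6 comparisons shows the log2 change of each of the 48 initiation factor probe sets (points, filled where the adjusted p was under 0.05), with the median of the 48 as a solid line and that of all 22225 probe sets as a dashed line. The median of the 48 lies highest for LMP1 minus YFP control, at 0.90, and next for CD40-activated minus naive control, at 0.61, while the dashed lines stay between -0.08 and 0.02.

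These comparisons share no array. There were 20 probe sets of the 48 that rose in both, which is 66.7% of the 30 that rose with LMP1 and 90.9% of the 22 that rose with CD40 activation. Over all probe sets 6.62% rose in both, which is 44.8% of those that rose with LMP1 and 60.5% of those that rose with CD40 activation. The 10 that passed with LMP1 alone were Eif1ax, Eif2b2, Eif2b4, Eif2b5, Eif2s2, Eif3e, probe set 17324396 of Eif4a2, Eif4b, Eif4e2 and Eif4h. The 2 that passed with CD40 activation alone were Eif3h and Eif3m, and 16 passed in neither. Passing in a single response is no evidence of a difference between the responses, which was tested separately and is given further on.

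**Figure D2:**
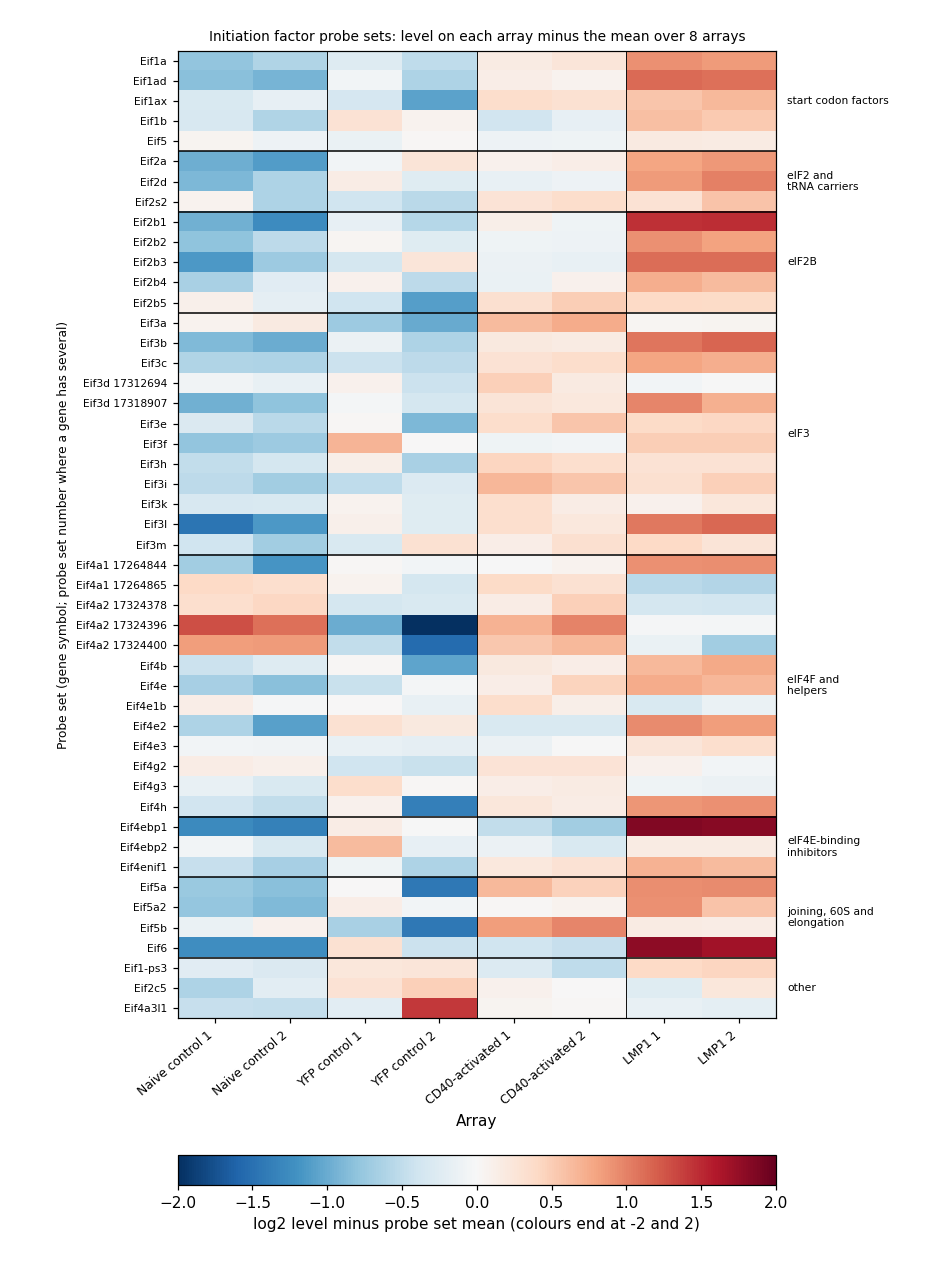
The heat map gives the level of each of the 48 probe sets on each of the 8 arrays as a log2 difference from that probe set's mean, with rows grouped by role and red above the mean. Most rows are reddest on the LMP1 arrays. Both LMP1 arrays lay above the 6 others for 27 of the 48 probe sets, as for 17.1% of all probe sets. Most rows are bluest on the naive or YFP control arrays, the lowest group for 29 and 13. The lowest group was not counted over all probe sets.

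Among the start codon factors, Eif1a and Eif1ax encode forms of eIF1A, which binds the decoding site of the small subunit during scanning. Eif1a stood at 8.0 and 7.75 in YFP control, 9.18 and 9.11 in LMP1, 7.47 and 7.67 in naive and 8.43 and 8.51 in CD40-activated cells. Neither stimulated group overlapped its control, and LMP1 cells were the highest. Eif1a rose by 1.27 ± 0.17 (SE from the model, 2 arrays a group) with LMP1 (adjusted p = 0.000536, limma) and by 0.90 ± 0.17 with CD40 activation (adjusted p = 0.0055, limma). Eif1ad, whose product carries an eIF1A-like domain, read 8.45 and 7.88 in YFP control and 9.64 and 9.61 in LMP1 cells, against 7.67 and 7.58 in naive and 8.63 and 8.57 in CD40-activated cells. It too was separate from its control in both responses, with changes of 1.46 ± 0.20 and 0.98 ± 0.20. Eif1ax rose by 1.30 ± 0.23 with LMP1, and its change of 0.57 ± 0.23 with CD40 activation did not pass (adjusted p = 0.127, limma).

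Eif5, which makes eIF2 hydrolyse GTP once the start codon is found, moved little. Its 8 arrays lay between 10.20 and 10.52, and its changes of 0.24 ± 0.16 with LMP1 and -0.07 ± 0.16 with CD40 activation did not pass. Eif1b, a close relative of eIF1, also passed in neither response, at 0.39 ± 0.18 and 0.20 ± 0.18. Eif1b was nevertheless higher in LMP1 than in CD40-activated cells, by 0.84 ± 0.18 (adjusted p = 0.0113, limma), as it was in YFP control than in naive cells, by 0.65 ± 0.18.

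The carriers of the initiator tRNA were measured through Eif2s2, the beta subunit of eIF2, and through Eif2a and Eif2d, which can deliver tRNA without eIF2. Eif2a lay at 8.65 and 8.97 in YFP control, 9.50 and 9.58 in LMP1, 7.74 and 7.60 in naive and 8.80 and 8.84 in CD40-activated cells. It was lowest in naive cells, highest in LMP1 cells, and overlapped between YFP control and CD40-activated cells. It rose by 0.73 ± 0.17 with LMP1 and by 1.15 ± 0.17 with CD40 activation. Eif2d rose by 0.98 ± 0.19 and 0.64 ± 0.19 respectively, the second close to the threshold (adjusted p = 0.0483, limma). Eif2s2 rose by 0.91 ± 0.23 with LMP1, a call lost without YFP control array 2 (adjusted p = 0.076, limma), and its change of 0.59 ± 0.23 with CD40 activation did not pass (adjusted p = 0.119, limma).

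All 5 subunits of eIF2B, which exchanges GDP for GTP on eIF2 and is blocked when eIF2 is phosphorylated, rose with LMP1. Eif2b1, the alpha subunit, changed most. It read 7.16 and 6.75 in YFP control, 8.79 and 8.80 in LMP1, 6.36 and 6.07 in naive and 7.45 and 7.24 in CD40-activated cells. Both LMP1 arrays lay more than 1 above the other 6, and CD40-activated cells were above naive cells on both arrays. Eif2b1 rose 3.58-fold with LMP1, or 1.84 ± 0.20 (adjusted p = 0.000152, limma), and by 1.13 ± 0.20 with CD40 activation (adjusted p = 0.0035, limma). It was also higher in LMP1 than in CD40-activated cells, by 1.45 ± 0.20 (adjusted p = 0.000961, limma).

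The other eIF2B subunits rose with LMP1 by 0.97 ± 0.18 for Eif2b2, 1.18 ± 0.22 for Eif2b3, 0.90 ± 0.24 for Eif2b4 (0.59 without YFP control array 2, adjusted p = 0.0999, limma) and 1.15 ± 0.23 for Eif2b5, the catalytic epsilon subunit. With CD40 activation Eif2b3 rose by 0.81 ± 0.22. The remaining 3 had changes between 0.41 and 0.58 that did not pass, Eif2b2 narrowly (adjusted p = 0.0513, limma). Eif2b5 was arranged differently from its partners. Its levels were 7.34 and 6.64 in YFP control, 8.15 and 8.13 in LMP1, 7.84 and 7.56 in naive and 8.06 and 8.24 in CD40-activated cells. YFP control cells were the low group, and LMP1 and CD40-activated cells overlapped, with a difference of -0.01 ± 0.23.

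The scaffold factor eIF3 was measured through 12 probe sets of 11 subunit genes. Eif3l had the highest rise of all 48 probe sets with CD40 activation. It stood at 8.87 and 9.18 in naive and 10.66 and 10.54 in CD40-activated cells, and at 10.43 and 10.09 in YFP control and 11.39 and 11.47 in LMP1 cells. The groups formed a ladder from naive to LMP1 in which YFP control and CD40-activated cells lay next to each other. Eif3l rose 2.98-fold with CD40 activation, or 1.58 ± 0.19 (adjusted p = 0.000494, limma), and by 1.17 ± 0.19 with LMP1 (adjusted p = 0.00146, limma). YFP control cells were already above naive cells, by 1.24 ± 0.19 (adjusted p = 0.00202, limma).

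The subunits Eif3a, Eif3b and Eif3c rose in both responses, Eif3b by 1.48 ± 0.19 with LMP1 and 1.13 ± 0.19 with CD40 activation, and Eif3c by 1.24 ± 0.16 and 0.94 ± 0.16. Eif3a, the large subunit around which the complex is built, was the exception in its order of groups. Its levels were 9.78 and 9.51 in YFP control, 10.55 and 10.57 in LMP1, 10.58 and 10.69 in naive and 11.15 and 11.26 in CD40-activated cells. CD40-activated cells were highest and YFP control cells lowest, with no overlap between any groups. Eif3a rose by 0.92 ± 0.17 with LMP1 and 0.57 ± 0.17 with CD40 activation, and it was lower in LMP1 than in CD40-activated cells (change -0.65 ± 0.17, adjusted p = 0.0284, limma).

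Eif3i and the brighter probe set of Eif3d, 17318907, also rose in both responses, by 0.79 ± 0.17 and 1.04 ± 0.18 with LMP1 and by 1.22 ± 0.17 and 1.11 ± 0.18 with CD40 activation. The other Eif3d probe set, 17312694, read between 4.63 and 5.54, below the array medians, and passed in no comparison. Eif3e rose with LMP1 by 0.84 ± 0.27, at the edge of the threshold (adjusted p = 0.0487, limma). Without YFP control array 2 that change was 0.38 and did not pass (adjusted p = 0.211, limma), and without array 1 it was 1.30. Its change of 0.87 ± 0.27 with CD40 activation lay on the other side (adjusted p = 0.0509, limma). Eif3h and Eif3m did not pass with LMP1. The LMP1 change of Eif3h was 0.94 without YFP control array 1 and 0.17 without array 2. With CD40 activation Eif3h and Eif3m rose by 0.80 ± 0.23 and 0.77 ± 0.22, close to the threshold (adjusted p = 0.043 and 0.0396, limma). Under repeated quantile normalization within each set of arrays these rises were 0.59 and 0.51 and did not pass (adjusted p = 0.0931 and 0.205, limma). Eif3f and Eif3k passed in neither response. With CD40 activation they missed narrowly, with changes of 0.69 ± 0.22 and 0.55 ± 0.18 (adjusted p = 0.0552 and 0.0579, limma). Eif3f also differed between the controls, with 11.68 and 11.01 in YFP control against 10.22 and 10.27 in naive cells. That difference was 1.10 ± 0.22 (adjusted p = 0.00698, limma).

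**Figure D3:**
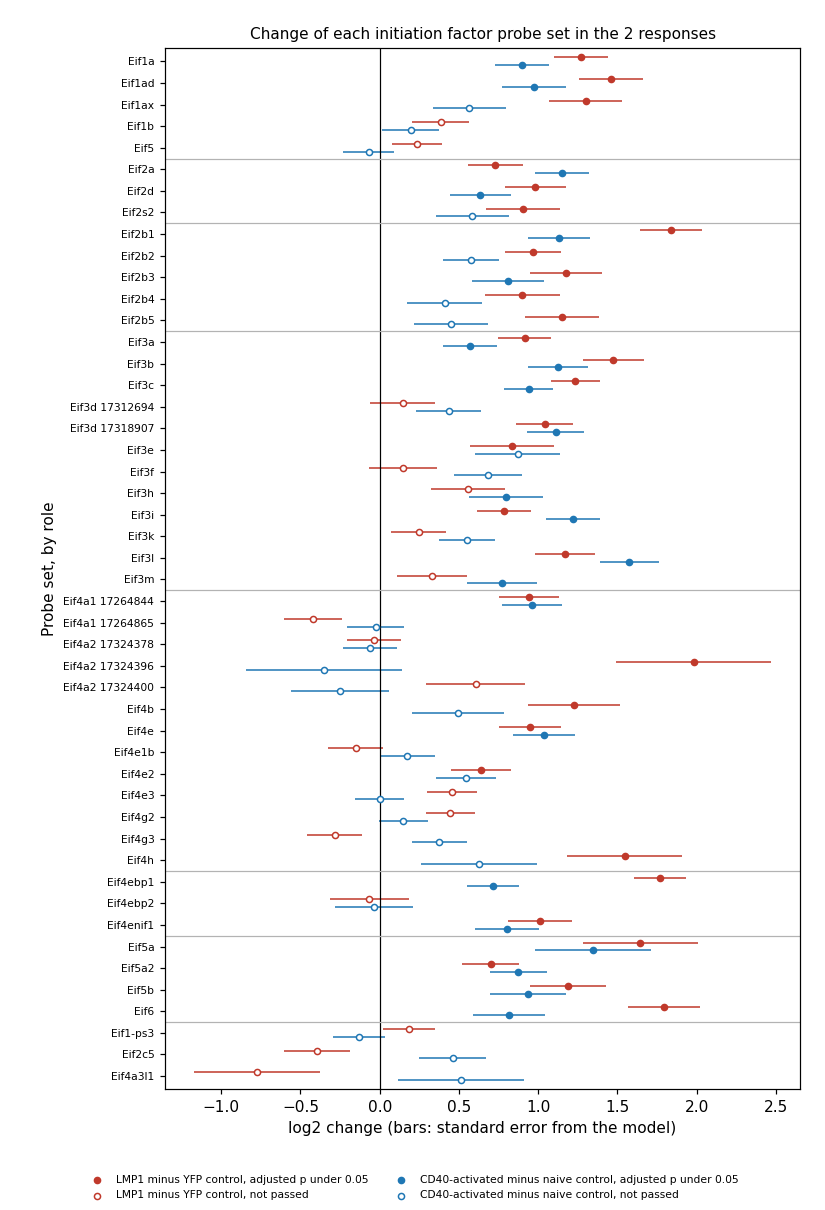
The plot of both responses gives the log2 change of each probe set with its standard error, for LMP1 minus YFP control in red and CD40-activated minus naive control in blue, filled where the adjusted p was under 0.05. The eIF2B rows and those of joining, 60S and elongation factors lie to the right of 0 in both colours, whereas the rows of eIF4F and its helpers run from -0.42 to 1.98 in red.

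The cap-binding complex eIF4F and its helpers were the least uniform group. Eif4e, the protein that grips the cap, stood at 8.91 and 9.31 in YFP control, 10.10 and 10.02 in LMP1, 8.69 and 8.51 in naive and 9.48 and 9.79 in CD40-activated cells. Both stimulated groups were above both controls without overlap. Eif4e rose by 0.95 ± 0.20 with LMP1 (adjusted p = 0.00596, limma) and by 1.04 ± 0.20 with CD40 activation (adjusted p = 0.00549, limma). Its difference between LMP1 and CD40-activated cells was 0.43 ± 0.20 and did not pass (adjusted p = 0.208, limma). Eif4e2, a cap-binding homologue that does not bind eIF4G and can repress translation, rose by 0.64 ± 0.19 with LMP1, a call lost without YFP control array 2 (adjusted p = 0.0988, limma), and its change of 0.55 ± 0.19 with CD40 activation did not pass. The further homologues Eif4e3 and Eif4e1b, the latter known from oocytes, passed in neither response, and Eif4e1b lay between 4.31 and 4.97 on all arrays.

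Eif4b and Eif4h, which stimulate the helicase eIF4A, rose with LMP1 by 1.23 ± 0.29 and 1.55 ± 0.37, both from YFP control arrays that disagreed. Eif4h read 10.05 and 8.59 in YFP control against 10.85 and 10.88 in LMP1 cells, and 9.58 and 9.47 in naive against 10.19 and 10.11 in CD40-activated cells. The groups of each response did not overlap, yet the YFP control arrays were 1.46 apart. Without YFP control array 2 the LMP1 change of Eif4h was 0.82, and without array 1 it was 2.28. A fit with 1 YFP control array leaves the gap between these arrays out of the error. The call of Eif4h was not kept under every alternative run. Eif4g3, a form of the eIF4G scaffold, passed in none of the comparisons. Eif4g2, a relative of eIF4G that lacks the site for eIF4E, passed in neither response, at 0.45 ± 0.16 and 0.15 ± 0.16. It was lowest in YFP control cells, with a change of -0.55 ± 0.16 relative to naive cells, and CD40-activated cells were 0.70 ± 0.16 above YFP control cells.

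The probe sets of the helicase genes Eif4a1 and Eif4a2 gave different pictures. Probe set 17264844 of Eif4a1 read 8.82 and 8.73 in YFP control, 9.71 and 9.72 in LMP1, 8.10 and 7.62 in naive and 8.78 and 8.86 in CD40-activated cells. Each stimulated group lay above its control, and YFP control and CD40-activated cells overlapped. It rose by 0.94 ± 0.19 with LMP1 (adjusted p = 0.00523, limma) and by 0.96 ± 0.19 with CD40 activation (adjusted p = 0.00682, limma). Probe set 17264865, named for the same gene, read 13.28 and 12.86 in YFP control, 12.67 and 12.63 in LMP1, 13.61 and 13.54 in naive and 13.59 and 13.51 in CD40-activated cells. Here LMP1 cells were the lowest group and naive and CD40-activated cells overlapped. Its changes of -0.42 ± 0.18 with LMP1 and -0.03 ± 0.18 with CD40 activation did not pass (adjusted p = 0.134 and 0.946, limma). The former was -0.63 without YFP control array 2 and -0.21 without array 1. Between LMP1 and CD40-activated cells the probe sets went opposite ways, with 0.90 ± 0.19 for 17264844 (adjusted p = 0.0105, limma) and -0.90 ± 0.18 for 17264865 (adjusted p = 0.00827, limma). A statement on Eif4a1 as a whole thus depends on the probe set.

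Eif4a2 encodes a closely related helicase, and all 3 of its probe sets were lower in YFP control than in naive cells. Probe set 17324378 changed by -0.71 ± 0.17, 17324396 by -3.20 ± 0.49 and 17324400 by -1.86 ± 0.31 (adjusted p = 0.0187, 0.00216 and 0.00313, limma). Probe set 17324396 lay at 8.56 and 6.53 in YFP control, 9.53 and 9.52 in LMP1, 10.84 and 10.65 in naive and 10.24 and 10.55 in CD40-activated cells. The YFP control arrays were 2.03 apart, the widest gap of any member within a group. This probe set rose with LMP1 by 1.98 ± 0.49 (adjusted p = 0.0155, limma). The change was 0.97 without YFP control array 2 and 2.995 without array 1, and the call was not kept under every alternative run. The other probe sets changed by -0.04 ± 0.17 and 0.61 ± 0.31 with LMP1 and did not pass, and none of the 3 passed with CD40 activation.

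**Figure D4:**
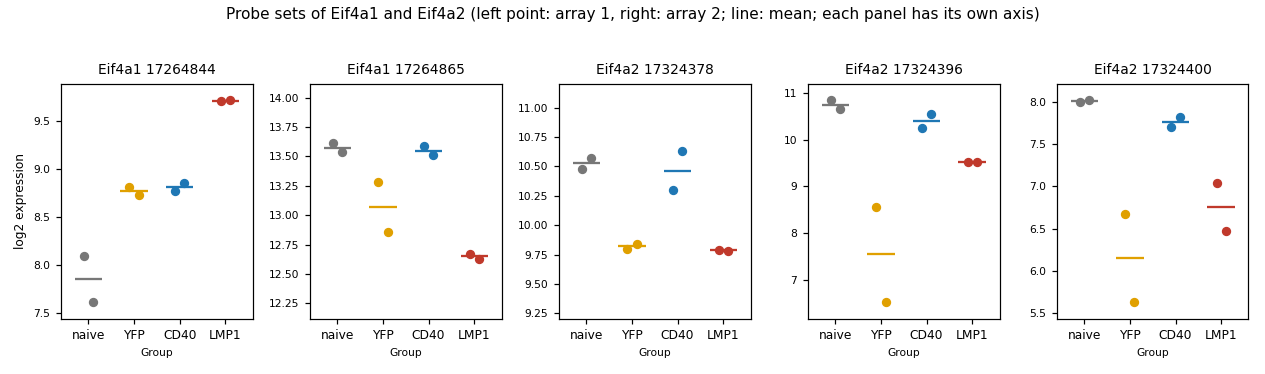
The panels plot the log2 expression of the 2 probe sets of Eif4a1 and the 3 of Eif4a2 on each array (points) with the group means (lines), each on its own axis. For Eif4a1 the LMP1 group is the highest in the panel of 17264844 and the lowest in that of 17264865, and for Eif4a2 the YFP control arrays of 17324396 lie at 8.56 and 6.53.

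The inhibitors that bind eIF4E moved apart from each other. Eif4ebp1 stood at 8.67 and 8.52 in YFP control, 10.38 and 10.35 in LMP1, 7.26 and 7.18 in naive and 8.03 and 7.84 in CD40-activated cells. No groups overlapped, and the order from naive through CD40-activated and YFP control to LMP1 spanned more than 3 on the log2 scale. Eif4ebp1 rose 3.41-fold with LMP1, or 1.77 ± 0.16 (adjusted p = 6.85e-05, limma), and by 0.72 ± 0.16 with CD40 activation (adjusted p = 0.0142, limma). It was 2.43 ± 0.16 higher in LMP1 than in CD40-activated cells (adjusted p = 2.35e-05, limma), the widest difference of any member in that comparison. Its paralog Eif4ebp2 passed in none of the 6 comparisons. Eif4ebp2 read 10.31 and 9.51 in YFP control, 9.85 and 9.84 in LMP1, 9.63 and 9.37 in naive and 9.56 and 9.37 in CD40-activated cells, so that each stimulated group overlapped its control. Its changes were -0.07 ± 0.25 with LMP1 and -0.04 ± 0.25 with CD40 activation. Eif4enif1, which carries eIF4E into the nucleus, rose by 1.01 ± 0.20 and 0.81 ± 0.20. Phosphorylation, which sets whether the 4E-binding proteins hold eIF4E, was not measured.

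All 4 factors of subunit joining, 60S assembly and elongation rose in both responses. With CD40 activation the calls of Eif5a, Eif5b and Eif6 were lost without naive control array 1 (adjusted p = 0.101, 0.112 and 0.108, limma) and without array 2 (adjusted p = 0.134, 0.0641 and 0.118, limma), and all 4 were lost without either CD40-activated array. Eif6, which keeps the large subunit from joining too early and is needed to make it, read 9.40 and 8.66 in YFP control, 10.88 and 10.77 in LMP1, 7.85 and 7.85 in naive and 8.70 and 8.63 in CD40-activated cells. LMP1 cells lay above all other arrays and naive cells below them. Eif6 rose 3.47-fold with LMP1, or 1.80 ± 0.23 (adjusted p = 0.000406, limma), and by 0.82 ± 0.23 with CD40 activation (adjusted p = 0.0353, limma). Eif5b, the GTPase of subunit joining, stood at 7.54 and 6.76 in YFP control, 8.35 and 8.33 in LMP1, 8.06 and 8.27 in naive and 9.03 and 9.17 in CD40-activated cells. As for Eif3a, CD40-activated cells were the highest group and YFP control cells the lowest. Eif5b rose by 1.19 ± 0.24 with LMP1 and by 0.94 ± 0.24 with CD40 activation.

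Eif5a and Eif5a2 encode the only proteins known to carry hypusine, a modified lysine, and act mainly in elongation and termination. Eif5a lay at 9.42 and 7.97 in YFP control, 10.33 and 10.35 in LMP1, 8.67 and 8.57 in naive and 10.06 and 9.87 in CD40-activated cells. The stimulated groups were above every control array, and the YFP control arrays were 1.45 apart. Eif5a rose by 1.65 ± 0.37 with LMP1 (adjusted p = 0.00882, limma) and by 1.35 ± 0.37 with CD40 activation (adjusted p = 0.031, limma). The LMP1 change was 0.92 without YFP control array 2 and 2.37 without array 1, and its call was not kept under every alternative run. Eif5a2 read 7.36 and 7.17 in YFP control, 8.14 and 7.79 in LMP1, 6.46 and 6.34 in naive and 7.25 and 7.30 in CD40-activated cells. YFP control and CD40-activated cells overlapped, between naive cells at the bottom and LMP1 cells at the top. Eif5a2 rose by 0.70 ± 0.18 with LMP1 (adjusted p = 0.018, limma) and by 0.88 ± 0.18 with CD40 activation (adjusted p = 0.0084, limma). Without YFP control array 2 its LMP1 change of 0.61 did not pass (adjusted p = 0.0597, limma).

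**Figure D5:**
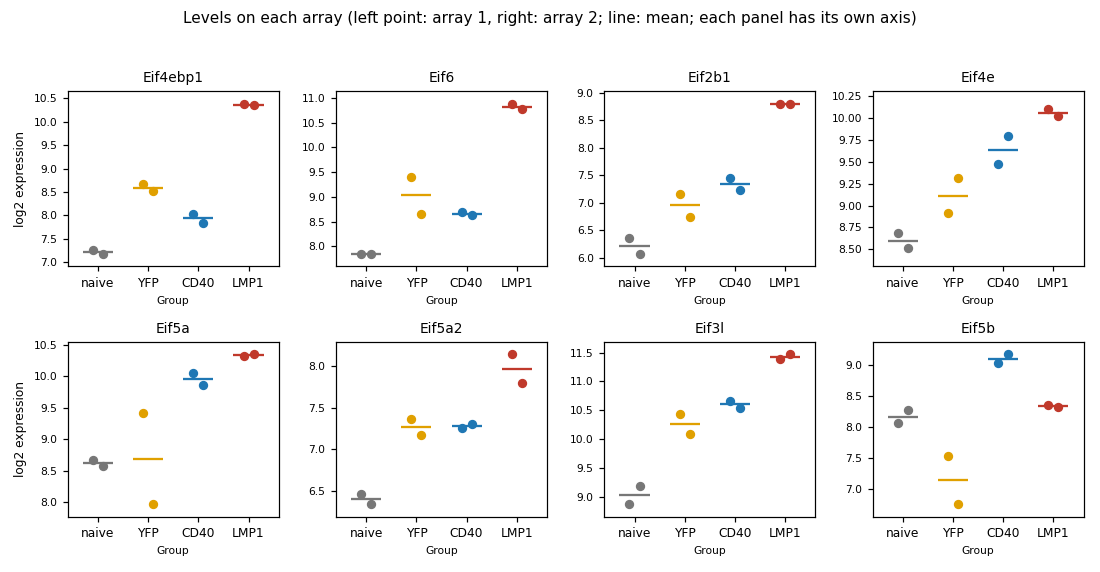
The panels plot the log2 expression of 8 initiation factor genes on each array (points) with the group means (lines), each on its own axis, for naive, YFP control, CD40-activated and LMP1 cells from left to right. Eif4ebp1, Eif6 and Eif2b1 have LMP1 arrays far above the rest, at 10.38 and 10.35 for Eif4ebp1, whereas Eif5b is highest in CD40-activated cells, at 9.03 and 9.17.

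The 3 remaining symbols are not established initiation factors. Eif1-ps3 is a pseudogene, Eif2c5 is listed by RefSeq as a long noncoding RNA, and Eif4a3l1 is a gene like Eif4a3. None passed in either response. Eif4a3l1 read 6.55 and 8.17 in YFP control and between 6.28 and 6.82 on the other 6 arrays, so that 1 YFP control array stood alone. Without YFP control array 1 its LMP1 change was -1.59, and without array 2 it was 0.035. Eif1-ps3 was higher in LMP1 than in CD40-activated cells, by 0.80 ± 0.16, and Eif2c5 higher in YFP control than in naive cells, by 0.81 ± 0.21.

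Because many members rose, their promoters were searched for short motifs. RefSeq promoter windows of 250 bases before the start (build GRCm38.p6) were found for 33 of the 44 genes. The E-box CACGTG, a site that MYC can bind and that reads the same on both strands, was present for 8 of the 33 genes (24.2%), against 6.86% of all 27025 genes and 7.61% of the 17492 protein-coding genes with such a window. The 8 genes were Eif1b, Eif3f, Eif3k, Eif4a1, Eif4e, Eif4h, Eif5a and Eif5a2. Of these, Eif1b, Eif3f and Eif3k passed in neither response, although Eif3f and Eif3k missed narrowly with CD40 activation. The composite element of ATF4 and C/EBP, TGATGNAA on either strand, was in none of the 33, against 3.91% of all genes, and an NF-kB form (GGG, any 2 bases, then TTTCC, on either strand) was in none, against 1.65%. A gene with several windows was counted once, as a match where any window held the motif. A match is a description of these letters in the window and not a measured site.

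The windows below show genes with an E-box, in capitals. Eif4e and Eif5a2 are shown because each holds 2 and rose in both responses, Eif5a because it rose in both with 1 E-box in this window, and Eif3f because it holds 1 and passed in neither. They lie at chr3:138527018-138527267 (plus strand), chr3:28781027-28781276 (plus strand), chr11:69921387-69921636 (minus strand) and chr7:108934165-108934414 (plus strand), and are written 5′ to 3′ along the gene.
Eif4e: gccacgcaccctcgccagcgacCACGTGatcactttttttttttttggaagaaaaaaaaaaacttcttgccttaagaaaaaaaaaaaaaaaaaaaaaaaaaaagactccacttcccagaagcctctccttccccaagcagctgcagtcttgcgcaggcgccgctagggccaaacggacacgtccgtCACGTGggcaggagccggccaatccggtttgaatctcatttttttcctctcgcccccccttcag
Eif5a2: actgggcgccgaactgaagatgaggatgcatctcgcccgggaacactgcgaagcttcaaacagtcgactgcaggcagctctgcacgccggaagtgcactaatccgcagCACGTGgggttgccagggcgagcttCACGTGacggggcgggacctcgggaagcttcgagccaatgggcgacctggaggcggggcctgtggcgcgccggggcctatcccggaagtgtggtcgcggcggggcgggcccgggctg
Eif5a: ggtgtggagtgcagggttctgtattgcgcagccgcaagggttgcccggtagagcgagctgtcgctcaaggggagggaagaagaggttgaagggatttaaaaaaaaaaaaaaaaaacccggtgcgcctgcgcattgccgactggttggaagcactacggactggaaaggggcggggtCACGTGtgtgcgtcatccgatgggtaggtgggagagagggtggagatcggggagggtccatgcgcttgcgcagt
Eif3f: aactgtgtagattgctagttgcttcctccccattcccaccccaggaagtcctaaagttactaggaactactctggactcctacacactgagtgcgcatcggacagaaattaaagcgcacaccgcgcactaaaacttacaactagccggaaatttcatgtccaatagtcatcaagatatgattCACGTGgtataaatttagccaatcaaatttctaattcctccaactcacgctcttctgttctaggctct
Counted back from the start, the first base of the E-box was at -228 and -64 for Eif4e, -142 and -117 for Eif5a2, -74 for Eif5a and -68 for Eif3f.

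Myc itself, a regulator of growth genes, read 9.13 and 9.02 in YFP control, 10.67 and 10.79 in LMP1, 9.40 and 8.95 in naive and 9.32 and 9.19 in CD40-activated cells. LMP1 cells stood above all other arrays, and naive and CD40-activated cells overlapped. Myc rose by 1.66 ± 0.19 with LMP1 (adjusted p = 0.000218, limma), while its change with CD40 activation was 0.08 ± 0.19 (adjusted p = 0.821, limma). The difference between these changes was 1.58 and passed the test. Naive cells went straight to RNA, with high levels of stress genes, and the part of that in the naive level of Myc was not tested.

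LMP1 and CD40-activated cells were also compared directly. Here 17 of the 48 probe sets were higher in LMP1 cells and 3 lower, against 9.48% and 5.30% of all probe sets, with a median difference of 0.40 against 0. Strain, sex, TAT-Cre, sorting and the re-analyzed title differ between these groups and cannot be told apart from the stimulus. The widest differences were those of Eif4ebp1 (2.43), Eif6 (2.16 ± 0.23, adjusted p = 0.000247, limma), Eif2b1 (1.45), Eif2b3 (1.25 ± 0.22), Eif4e2 (1.20 ± 0.19), Eif2d (1.06 ± 0.19) and Eif1ad (1.03 ± 0.20). The 3 lower in LMP1 cells were Eif3a (-0.65), probe set 17264865 of Eif4a1 (-0.90) and probe set 17324378 of Eif4a2 (-0.68 ± 0.17). Without LMP1 array 1 or 2 there were 6 higher and none lower (5.93% or 6.26% of all probe sets passed). Without CD40-activated array 1 there were 6 higher and 1 lower (6.80% of all), and without array 2 there were 5 higher and none lower (5.90% of all). Higher and lower calls alike thus became fewer when any of these arrays was left out. When the fit held these groups alone 24 were higher and 7 lower, and 29.5% of all probe sets passed. Both LMP1 arrays lay above the 6 others for 27 of the 48 probe sets, as for 17.1% of all probe sets. Both CD40-activated arrays did so for 6 (5.30% of all), which were Eif3a, probe set 17312694 of Eif3d, Eif3h, Eif3i, Eif4g2 and Eif5b. The same held for 2 in naive cells (13.8% of all) and 1 in YFP control cells (9.51% of all).

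The controls differed from each other before any stimulus was compared. YFP control cells had 14 of the 48 probe sets higher and 6 lower than naive cells, against 10.9% and 7.81% of all probe sets, with a median of 0.27 against 0. Among the higher ones were Eif4ebp1 (1.38 ± 0.16), Eif3l (1.24), Eif6 (1.18 ± 0.23), Eif2a (1.14 ± 0.17), Eif3f (1.10) and Eif4e2 (1.10 ± 0.19). The 6 lower ones were the 3 probe sets of Eif4a2, Eif3a (-0.99 ± 0.17), Eif5b (-1.02 ± 0.24) and Eif4g2 (-0.55). Culture, TAT-Cre, sorting, strain, sex and the re-analyzed title change together between the controls and cannot be told apart. T cell markers and stress genes were higher in the naive arrays. For Eif5a the main difference was 0.08 ± 0.37, and it was -0.65 without YFP control array 1 (adjusted p = 0.0229, limma). Without YFP control array 1 there were 13 higher and 12 lower, where 14.6% and 13.2% of all probe sets were. The count was 8 when the fit held the controls alone, where 7.35% of all probe sets passed.

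CD40-activated cells were also set against YFP control cells, which too were kept for 2 days. Strain, sex, TAT-Cre, sorting and the re-analyzed title differ between these groups and cannot be told apart from the antibody. Here CD40-activated cells had 12 of the 48 probe sets higher and 2 lower, while 7.88% and 5.97% of all probe sets were higher and lower. The median difference was 0.41, against -0.05 over all probe sets. The widest were probe set 17324396 of Eif4a2 (2.85 ± 0.49), Eif5b (1.95 ± 0.24, adjusted p = 0.000853, limma), probe set 17324400 of Eif4a2 (1.61 ± 0.31), Eif3a (1.56 ± 0.17, adjusted p = 0.000447, limma) and Eif5a (1.27 ± 0.37). The 2 lower were Eif4ebp1 (-0.66 ± 0.16, adjusted p = 0.0246, limma) and Eif1-ps3 (-0.62 ± 0.16). Eif4e (0.53 ± 0.20) and Eif5a2 (0.01 ± 0.18), which rose against naive cells, did not pass against YFP control cells. With quantile normalization repeated within each set of arrays the count was 9 higher and 5 lower, where 6.39% and 8.67% of all probe sets were. Rises then made up 42.5% of all calls against 56.9%. The count was 25 without YFP control array 1, where 25.3% of all probe sets passed. It was 3 without CD40-activated array 1 or 2 (4.95% or 4.04% of all), 9 without either LMP1 array (9.51% of all), which enter through the shared spread, and 8 with these groups alone (7.82% of all). None of these last settings gave a lower call.

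The changes of the LMP1 and CD40 comparisons, the latter with the step into culture, were compared by testing the difference of the changes. Eif4ebp1 was the 1 member that passed. Its change with LMP1 exceeded that with CD40 activation by 1.06 ± 0.23 (95% interval 0.54 to 1.57, adjusted p = 0.0216, limma), while 4.18% of all probe sets passed upwards and 4.12% downwards. The call was lost without LMP1 array 1 or 2, naive control array 1, or CD40-activated array 1 or 2. The count of members was 12 without YFP control array 1, where 19.4% of all probe sets passed, and 4 without array 2, where 9.68% of all passed. Eif6 had a difference of 0.98 ± 0.32 that did not pass (adjusted p = 0.0998, limma), as did probe set 17324396 of Eif4a2 at 2.33 ± 0.69 (adjusted p = 0.0724, limma). For the other probe sets no difference between the responses was detected either, with a median difference over all 48 of 0.28 against 0.02 over all probe sets, and 2 arrays in a group set the precision of these values.

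Of 46 other genes of translation and its control, 42 were measured. With LMP1 17 rose and 1 fell, with a median change of 0.65, and with CD40 activation 12 rose and 2 fell, with a median of 0.27. None of the 4 kinases that phosphorylate eIF2, Eif2ak1 to Eif2ak4, passed in either response. Atf4 encodes the transcription factor whose translation increases when eIF2 is phosphorylated. It rose by 1.26 ± 0.22 with LMP1 and changed by -0.13 ± 0.22 with CD40 activation, which did not pass. Its levels were 7.86 and 7.20 in YFP control and 8.80 and 8.78 in LMP1 cells. They were 8.80 and 8.66 in naive and 8.62 and 8.59 in CD40-activated cells. YFP control cells were thus the low group, and LMP1 and naive cells overlapped. Ppp1r15a, which directs a phosphatase to eIF2, fell by 2.59 with CD40 activation (adjusted p = 0.000166, limma), in the comparison in which stress genes were high in the naive arrays. The termination factor Etf1 rose in both responses, by 1.47 ± 0.16 and 1.55 ± 0.16, as did Abce1, which splits ribosomes after termination, by 0.79 ± 0.20 and 1.30 ± 0.20. Dhps, the first enzyme of hypusine synthesis on eIF5A, rose by 1.27 ± 0.25 and 0.91 ± 0.25, and Dohh, the next enzyme, rose with LMP1 by 0.79 ± 0.20. Larp1, an mTORC1 target that binds mRNAs of ribosomal proteins, rose by 0.96 ± 0.20 and 1.03 ± 0.20. Paip2, which keeps poly(A)-binding protein from its partners, was the gene that fell with LMP1, by a change of -0.97 ± 0.17 (adjusted p = 0.00255, limma). Beside Myc, the difference between the responses passed for Atf4 (1.39) and Ppp1r15a (3.30).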

How the data were processed

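RNA from 8 samples was measured on Affymetrix arrays. The authors deposited log2 expression per probe set, summarised by RMA with oligo (per the submitters' processing notes, without version numbers), for arrays of this and an earlier series together. Symbols came from the platform annotation. Of 25349 probe sets, 616 with several symbols and 2508 with none were left out, and 0 columns of samples went unused. Genes such as Eif1, Eif2s1, Eif3g and Eif4g1 were not analysed here.

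A single linear model with 1 mean per group was fitted to every probe set over the 8 arrays (limma 3.58.1, R 4.3.3). It had 4 residual and 5.75 prior degrees of freedom and was tested on simulated data. P-values are two-sided and adjusted over 22225 probe sets. Errors of changes are standard errors from the model, over 2 arrays a group, whose number limits the precision. Any member could be named, with full statistics for up to 10 with the highest and 10 with the lowest changes per comparison and for Eif4a1, Eif4e, Eif4ebp1, Eif4ebp2, Eif5a and Eif5a2. Members and lists were chosen with earlier results of these data known. Alternatives were eBayes settings, the groups fitted, 1 probe set per gene, a filter on dim probe sets, scaling, a replicate block and leaving out each array.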

Additional observations from a re-analysis of the deposited data

Results flagged for a closer look

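Eif4ebp1 changed by different amounts in the 2 comparisons of stimulated cells with their controls. Its log2 change with LMP1 minus that with CD40 activation was 1.06 ± 0.23 (adjusted p = 0.0216, limma, interaction of both changes), from 1.77 and 0.72. The call was lost in 5 of 14 settings, those without LMP1 array 1 or 2, naive control array 1, or CD40-activated array 1 or 2. The CD40 comparison also holds the step from fresh to cultured cells, which cannot be told apart from the antibody, and the controls alone differed by 1.38 ± 0.16. The naive cells, which enter the CD40 change, carried high levels of T cell markers and stress genes, and the part of this in the difference was not tested.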

How the results depend on the processing

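Across the alternatives, 1 member value changed sign while called, Eif5a between YFP control and naive control (-0.65 without YFP control array 1, and 0.80 without array 2), a setting that leaves the lone YFP control array to vary like the other groups. Of the 30 probe sets that rose with LMP1, 15 passed in every setting run, as did 7 of the 22 that rose with CD40 activation, 4 of 20 between LMP1 and CD40-activated cells, 8 of 20 between the controls and 2 of 14 between CD40-activated and YFP control cells. The matching shares over all probe sets were not counted. With only the groups compared in the fit the counts were 31 for LMP1 against CD40-activated (29.5% of all probe sets), 8 for the controls (7.35%) and 8 for CD40-activated against YFP control cells (7.82%). The cause was not tested. With quantile normalization repeated inside each set the counts were 14 for CD40-activated against naive cells (15.4% of all probe sets) and 2 for the difference of responses (8.94%). Replicate numbers are shared between groups, but deviations from the group means correlated at 0.06 between LMP1 and YFP control and -0.07 between CD40-activated and naive cells, so the numbers were not taken as pairs. With a replicate block the counts were 30 for LMP1 against YFP control (22.9% of all probe sets) and 21 for CD40-activated against naive cells (16.8%). They were 11 for LMP1 against CD40-activated cells (8.95%) and 11 for the controls (8.97%). For CD40-activated against YFP control cells the count was 5 (6.97%), and for the difference of responses 2 (8.13%). Leaving out 1 array gave 18 to 34 calls for LMP1 against YFP control, 7 to 30 for CD40-activated against naive cells, 5 to 28 for LMP1 against CD40-activated cells, 14 to 25 for the controls, 3 to 25 for CD40-activated against YFP control cells and 0 to 12 for the difference of responses. The difference for Eif4ebp1 lay between 0.96 and 1.15 in 14 settings and passed in 9, with an adjusted p (limma) of at most 0.116. Probe sets near the background of an array have only imprecise changes, and with 2 arrays a group small differences were not detectable.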
